A study of Homo sapiens with 4 samples.

Results

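The 52 genes described here encode the core kinases and regulators of the PI3K-AKT-mTOR pathway, from the phosphoinositide 3-kinases at the membrane to the AMPK subunits that oppose mTOR. They were taken by symbol from a hand-written list, and all 52 were found among the 63677 genes of the deposited table. For PIK3R2 and PRKAB2, which have 2 rows each, the row with the higher mean was used. After a filter for low counts, 50 of the 52 were tested.

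The cells were MDA-MB-231, an established human line derived from a triple-negative breast cancer. They were treated with a control siRNA (siCt) or with siRNA against AXL (siAxl), which the methods of the study describe as a commercial pool. AXL belongs with TYRO3 and MERTK among the receptor tyrosine kinases. Each group has 2 RNA-seq libraries, siCt 1 and 2 and siAxl 1 and 2, and nothing in the labels says whether they came from separate cultures, so p-values measure only the spread between these libraries. A single cell line, 1 control siRNA and 1 AXL pool limit what the comparison can stand for.

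Receptor tyrosine kinases recruit class I PI3K, whose lipid product draws the kinase AKT to the membrane. AKT inhibits the TSC complex, which frees the small GTPase RHEB to activate mTOR complex 1 (mTORC1). mTORC1 then phosphorylates the S6 kinases and the translational repressors EIF4EBP1 and EIF4EBP2. The LKB1 kinase (STK11), held active by a STRAD pseudokinase and the scaffold CAB39, switches on AMPK, which restrains mTORC1 through TSC2 and RPTOR. Most of this control acts on protein activity and phosphorylation, which RNA levels do not measure.

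The deposited values are normalized counts, reads per gene divided by a size factor for each library. The libraries held between 39574387 and 44585773 reads. Groups were compared by limma on log2(normalized count + 1), and genes with a p under 0.05 after Benjamini-Hochberg adjustment over all 16064 tested genes are named as called. Fold changes are siAxl over siCt on that log2 scale, which understates the change of low genes. With 2 libraries against 2, an exact permutation of the labels cannot give a two-sided p under 0.333, so each adjusted p depends on the pooling of gene spreads by limma. AXL itself had 29189 and 30617 normalized counts in siCt 1 and 2 and 8658 and 7141 in siAxl 1 and 2, which left 26.4% of the siCt mean. VIM, CD44, FN1 and ZEB1, markers of mesenchymal cells, lay between 3075 and 99296 normalized counts in every library. Of the luminal and epithelial markers examined, ESR1 and PGR did not pass 3.3. CDH1 was low, at 90.1 and 94.3 in siCt 1 and 2 and 36.9 and 22.6 in siAxl 1 and 2. It was called lower in siAxl (log2 fold change -1.64, limma adjusted p = 0.00847). ERBB2, at 2949 to 3680, and EPCAM, at 565 to 771, were present. ERBB2 was called higher in siAxl (log2 fold change 0.26, limma adjusted p = 0.0258), and EPCAM was not called.

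Loss of AXL RNA was accompanied by changes in both directions among the pathway genes and by no common shift. Of the 50 members tested, 12 were called higher and 4 lower in siAxl, or 32% against 18.7% of all tested genes. By direction, 10.8% of all tested genes were called higher and 7.91% lower. The members were also more abundant than most genes, with a median of 2645 normalized counts against 884. Among genes with a mean of at least 1000 normalized counts, a limit set after the values were seen, 26.4% were called, beside 13 of the 40 members above it (32.5%). Of these 40, 11 were higher and 2 lower, beside 14.7% and 11.7% of all genes above the limit. The median log2 fold change was -0.0013 over the members and -0.0022 over all tested genes, and the median size of a change was 0.168 and 0.173. The siAxl libraries were both above the siCt libraries in 18 members and both below in 14, beside 30.6% and 30.5% of all tested genes. The plot of fold changes by role shows that most complexes held called and uncalled subunits side by side.

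**Figure D1:**
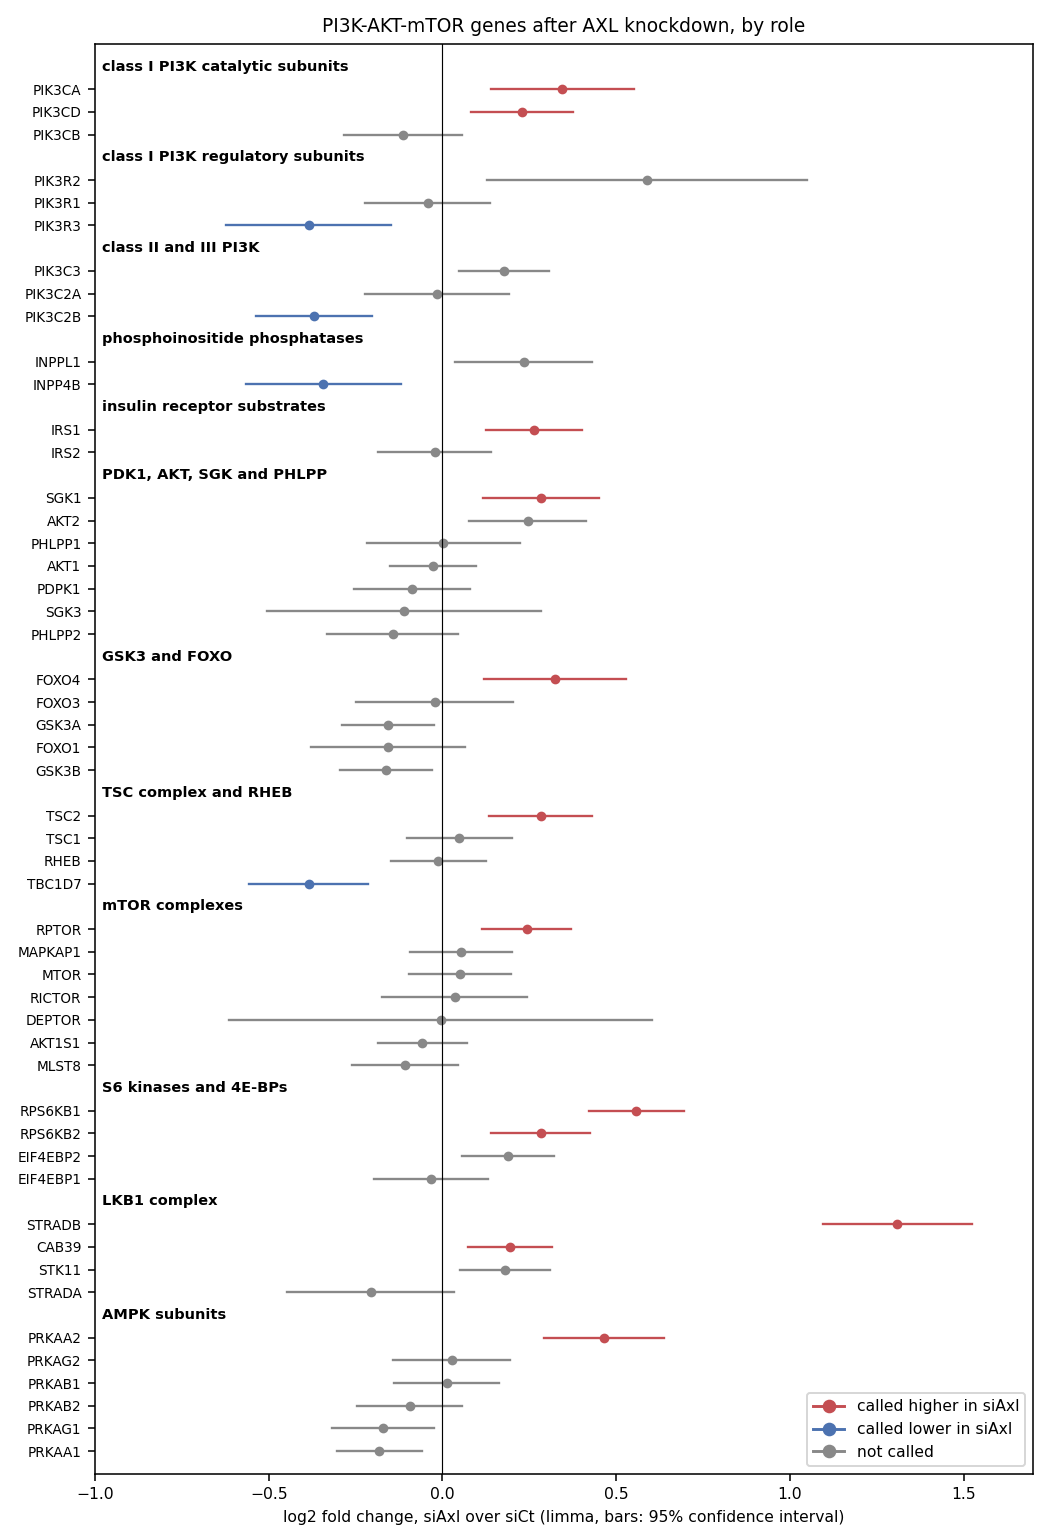
Log2 fold change (siAxl over siCt, horizontal axis) of the 50 tested members, grouped by role, with points for limma estimates and bars for 95% confidence intervals. STRADB, at 1.31, stands apart from all other members, which lie between -0.38 and 0.59.

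Most calls were lost when either siAxl library was left out. With siAxl 1 left out, 4 members were called (STRADB, RPS6KB1, PRKAA2 and PIK3CA), and with siAxl 2 left out 5 were (STRADB, RPS6KB1, PRKAA2, INPP4B and PIK3R3). Without siCt 2 the number was 9, and without siCt 1 it was 16, of which 14 were among the original 16. STRADB, RPS6KB1 and PRKAA2 were thus the members called with any 1 library left out, and they were also called under every other setting tried. When every gene with at least 1 read in any library was tested, 4 members were called, TBC1D7 beside these 3. No called member changed direction under any setting. For all genes and members alike, the balance of directions moved with the scaling. Under scaling by library size alone, 46.8% of all called genes were higher instead of 57.7%, and the members divided into 10 higher and 7 lower.

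**Figure D2:**
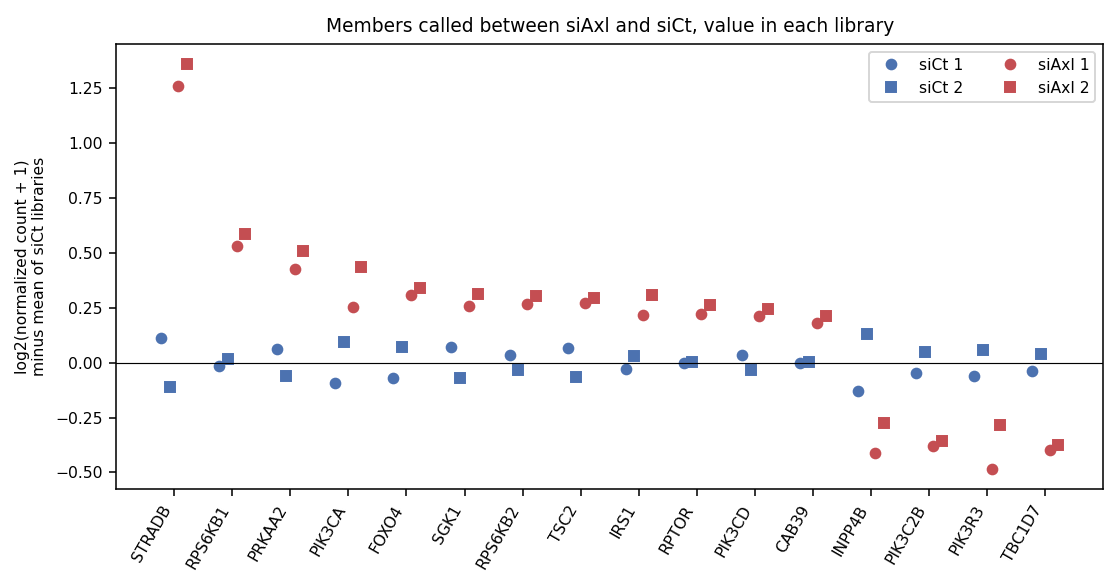
Value of each of the 16 called members in each library, as log2(normalized count + 1) minus the mean of the siCt libraries (vertical axis), with siCt in blue, siAxl in red, circles for replicate 1 and squares for replicate 2. Both siAxl libraries lie beyond both siCt libraries for all 16 genes, as they do for 61.2% of all tested genes.

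The catalytic subunits of class I PI3K, which make the lipid that recruits AKT, did not move together. PIK3CA (ENSG00000121879), which encodes the alpha isoform, had 2173 and 2467 normalized counts in siCt 1 and 2 and 2763 and 3132 in siAxl 1 and 2. Its mean rose from 2320.0 ± 208 to 2947 ± 261 (SD, n = 2), with a log2 fold change of 0.35 (SE, the standard error, 0.0878, limma adjusted p = 0.036). The groups did not overlap, but the lower siAxl library exceeded the higher siCt library by only about as much as replicates differed. Without siAxl 2 its log2 fold change was 0.25 and the call was lost.

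PIK3CD (ENSG00000171608), the delta isoform best known from leukocytes, was at 1689.6 and 1609 normalized counts in siCt 1 and 2 and at 1911 and 1955 in siAxl 1 and 2, and its log2 fold change was 0.23 (SE 0.0623, limma adjusted p = 0.044). It was close to the threshold. PIK3CD was not called with DESeq2 (adjusted p = 0.0798), upper quartile scaling (adjusted p = 0.0521) or scaling by library size alone (adjusted p = 0.06). Nor was it called after removal of the GC and transcript length trend (adjusted p = 0.11). PIK3CD also lost its call without siCt 2, siAxl 1 or siAxl 2, with log2 fold changes of 0.19, 0.25 and 0.21. Its exons overlap over 1.4% of their length with CLSTN1, a gene of the other strand with 15170 reads per library and a log2 fold change of 0.46 (limma adjusted p = 0.00353). Whether reads were counted by strand is not given in the sources used here, and the part of CLSTN1 reads in the PIK3CD value was not tested.

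PIK3CB (ENSG00000051382), the beta isoform, had 3385 and 3703 normalized counts in siCt and 3127 and 3423 in siAxl, so the groups overlapped. Its log2 fold change of -0.11 had a 95% interval of -0.28 to 0.06. PIK3CB was called, as lower, only with the replicate number as a block (limma adjusted p = 0.0201). PIK3CG, the gamma isoform of blood cells, did not pass the filter, with 7 and 10 reads in siCt and 9 and 9 in siAxl. Per kilobase of the principal transcript, PIK3CB was the highest of the class I catalytic genes in siCt, at 599 normalized counts against 317 for PIK3CD and 255 for PIK3CA, and in siAxl the order was the same. Per kilobase of all annotated exons PIK3CB was also highest, but in siAxl PIK3CA (310) was just above PIK3CD (305). Within each library the log2 ratio of PIK3CA to PIK3CB does not depend on library scaling. It was -0.64 in siCt 1 and -0.59 in siCt 2, and -0.18 in siAxl 1 and -0.13 in siAxl 2, which brought PIK3CA 0.46 closer to PIK3CB (exact permutation p = 0.333, the smallest the design allows).

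Among the regulatory subunits, which stabilise the catalytic subunits and tie them to phosphotyrosine, PIK3R3 fell and PIK3R1 was not called. PIK3R3 (ENSG00000117461) had 605 and 657 normalized counts in siCt 1 and 2 and 451 and 517 in siAxl 1 and 2, a log2 fold change of -0.38 (SE 0.101, limma adjusted p = 0.0394). This left 76.7% of the siCt mean, with no overlap between the groups, and the call was lost without siCt 2 (-0.33) or siAxl 1 (-0.29).

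PIK3R1 (ENSG00000145675), the most abundant of the regulatory genes, had 947 and 1034 normalized counts in siCt and 944 and 978 in siAxl, with a log2 fold change of -0.04 (95% interval -0.22 to 0.14). PIK3R2 (ENSG00000105647) had only 48.9 and 45.5 normalized counts in siCt and 78.7 and 64.9 in siAxl, and was not called (0.59, SE 0.195, limma adjusted p = 0.0781). Of its exons, 87.2% are shared with a readthrough gene on the same strand that carries the same symbol in the table and had 12, 3, 15 and 13 reads in siCt 1, siCt 2, siAxl 1 and siAxl 2. Reads in shared exons can be assigned to neither gene by a counter that keeps unambiguous reads, so the PIK3R2 level is uncertain.

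Of the class II and III enzymes, which make other phosphoinositides on endosomes and autophagic membranes, PIK3C2B fell. PIK3C2B (ENSG00000133056) had 1182 and 1263 normalized counts in siCt 1 and 2 and 938 and 954 in siAxl 1 and 2, a log2 fold change of -0.37 (SE 0.071, limma adjusted p = 0.0154). The siAxl libraries lay close together and well under both siCt libraries, and the range with 1 library left out was -0.42 to -0.32, although the call was lost without siAxl 1 or siAxl 2. Its class II relative PIK3C2A had a log2 fold change of -0.02 with overlapping groups. PIK3C3, the class III enzyme of autophagy, had 0.18 (limma adjusted p = 0.0652) and was called only with TMM scaling, in limma and in edgeR's quasi-likelihood test (adjusted p = 0.0477 in the latter), and with the replicate number as a block.

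INPP4B, a phosphatase that removes phosphate from PI3K products and is lost in many basal-like breast tumours, was present in these cells. INPP4B (ENSG00000109452) had 3121 and 3735 normalized counts in siCt 1 and 2 and 2567 and 2824 in siAxl 1 and 2, which is a fall of 0.34 on the log2 scale (SE 0.0948, limma adjusted p = 0.0465). The replicates of siCt differed by more than the gap between siCt 1 and siAxl 2, and without siCt 2 the value was -0.21 and not called. It was not called without siAxl 1 either. The SHIP phosphatases INPPL1 and INPP5D act on the PI3K product one step before INPP4B. INPPL1 was abundant, with 10420 and 9130 normalized counts in siCt and 12120 and 10849 in siAxl, and a log2 fold change of 0.23 (limma adjusted p = 0.0952). It was called with the replicate number as a block and without siCt 1 (log2 fold change 0.33). INPP5D, its relative in blood cells, had 5 and 2 reads in siCt and 0 and 1 in siAxl and was under the filter.

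Of the insulin receptor substrates, adaptors that bring PI3K to insulin and IGF receptors, IRS1 rose. IRS1 (ENSG00000169047) had 6436 and 6707 normalized counts in siCt 1 and 2 and 7646 and 8138 in siAxl 1 and 2, a log2 fold change of 0.26 (SE 0.0585, limma adjusted p = 0.0241). The groups did not overlap, and the value lay between 0.22 and 0.31 with 1 library left out, the call being lost without siAxl 1 or siAxl 2. IRS2 was nearly level, with 1019 and 1048 normalized counts in siCt and 1002 and 1033 in siAxl, a log2 fold change of -0.02 (95% interval -0.18 to 0.14).

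The AKT kinases themselves were not called. AKT1 (ENSG00000142208) had 8681 and 8618 normalized counts in siCt 1 and 2 and 8357 and 8630.3 in siAxl 1 and 2. Its log2 fold change of -0.03 had a 95% interval of -0.15 to 0.10. AKT2 (ENSG00000105221) had 5791 and 5108 normalized counts in siCt and 6547 and 6348 in siAxl. Both siAxl libraries were above both siCt libraries, but the log2 fold change of 0.25 missed the threshold (SE 0.0713, limma adjusted p = 0.054). AKT2 was past it with DESeq2 (adjusted p = 0.0364), with the replicate number as a block (limma adjusted p = 7.35e-07) and without siCt 1 (log2 fold change 0.34). The log2 ratio of AKT1 to AKT2 was 0.58 and 0.76 in siCt 1 and 2 and 0.35 and 0.44 in siAxl 1 and 2.

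PDPK1, the kinase that activates AKT at its activation loop, had a log2 fold change of -0.09, and the AKT phosphatases PHLPP1 and PHLPP2 had 0.002 and -0.14, none of them called. SGK1 (ENSG00000118515), a relative of AKT that PDPK1 also activates, rose. It had 1853 and 1678 normalized counts in siCt 1 and 2 and 2106 and 2191 in siAxl 1 and 2, a log2 fold change of 0.28 (SE 0.0708, limma adjusted p = 0.0337). Its call was lost without siCt 2, siAxl 1 or siAxl 2, with log2 fold changes of 0.21, 0.31 and 0.26. SGK3 was low, at 108 to 138 normalized counts, and its log2 fold change of -0.11 had a wide 95% interval of -0.51 to 0.28.

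Of the AKT substrates, GSK3A and GSK3B, the glycogen synthase kinases, changed in parallel without reaching the threshold. GSK3A (ENSG00000105723) had 3639.9 and 3583 normalized counts in siCt 1 and 2 and 3175 and 3309 in siAxl 1 and 2, and GSK3B (ENSG00000082701) had 3566 and 3512, then 3090.4 and 3232. For both the siAxl libraries were below the siCt libraries, at 89.8% and 89.3% of the siCt mean (limma adjusted p = 0.0966 and 0.0878). Both were called under scaling by library size alone (limma adjusted p = 0.0487 and 0.0451) and with the replicate number as a block. GSK3B was also called under upper quartile scaling. The log2 ratio of GSK3A to GSK3B stayed between 0.029 and 0.039 in all 4 libraries.

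FOXO4 was the one FOXO gene called. These transcription factors are kept out of the nucleus when AKT phosphorylates them. FOXO4 (ENSG00000184481) had 527 and 583 normalized counts in siCt 1 and 2 and 687 and 702 in siAxl 1 and 2, a log2 fold change of 0.32 (SE 0.0865, limma adjusted p = 0.042). The call was lost with DESeq2 (adjusted p = 0.0797), with scaling by library size alone (adjusted p = 0.0506) and after removal of the GC and length trend (adjusted p = 0.0561). It was also lost without siCt 1, siAxl 1 or siAxl 2, with log2 fold changes of 0.25, 0.34 and 0.31.

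FOXO3 (ENSG00000118689), the most abundant of the FOXO genes, had 2953 and 3489 normalized counts in siCt and 2969 and 3362 in siAxl, and replicates differed far more than groups (log2 fold change -0.02, 95% interval -0.25 to 0.20). FOXO1 (ENSG00000150907) had 523 and 557 normalized counts in siCt and 459 and 509 in siAxl, a log2 fold change of -0.16 that was not called (limma adjusted p = 0.287).

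The TSC complex, the brake on mTORC1, was split among its subunits. TSC2 (ENSG00000103197), its GTPase-activating subunit, rose from 4192 and 3832 normalized counts in siCt 1 and 2 to 4839.6 and 4915 in siAxl 1 and 2, a log2 fold change of 0.28 (SE 0.0627, limma adjusted p = 0.0241). TBC1D7 (ENSG00000145979), the smallest subunit, fell from 983 and 1035 to 766 and 778, a log2 fold change of -0.38 (SE 0.0725, limma adjusted p = 0.0144). TSC1 (ENSG00000165699), the partner that stabilises TSC2, had 3179.7 and 3369.7 normalized counts in siCt and 3512 and 3263 in siAxl, with overlapping groups and a log2 fold change of 0.05 (95% interval -0.10 to 0.20).

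The TSC2 call was lost after removal of the GC and length trend (adjusted p = 0.0638). It was also lost without siCt 2, siAxl 1 or siAxl 2, with log2 fold changes of 0.22, 0.29 and 0.27. The TBC1D7 call was lost without siAxl 1 (-0.37) or siAxl 2 (-0.40). TSC2 overlaps NTHL1 over 2% and PKD1 over 4% of its exons, on the opposite strand, and both had fewer reads than TSC2. RHEB (ENSG00000106615), the target of the complex, was the most abundant member per kilobase. It had 7892 and 8229 normalized counts in siCt and 7750.4 and 8245 in siAxl, a log2 fold change of -0.01 (95% interval -0.15 to 0.13).

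In the mTOR complexes, RPTOR was called and the kinase was not. RPTOR (ENSG00000141564), the subunit that presents substrates to mTORC1, had 3457 and 3464 normalized counts in siCt 1 and 2 and 4039 and 4146 in siAxl 1 and 2. Replicates were nearly equal and the groups clearly apart, with a log2 fold change of 0.24 (SE 0.0538, limma adjusted p = 0.0243). The call was lost after removal of the GC and length trend, which brought the log2 fold change to 0.15 (adjusted p = 0.0883). It was also lost without siAxl 1 or siAxl 2, with log2 fold changes of 0.26 and 0.22.

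MTOR (ENSG00000198793) had 4256 and 4603 normalized counts in siCt and 4490.0 and 4687 in siAxl, a log2 fold change of 0.05 (95% interval -0.10 to 0.20). RICTOR (ENSG00000164327), the defining subunit of mTORC2, had 4441 and 5251 in siCt and 4741 and 5165 in siAxl, a log2 fold change of 0.04 (95% interval -0.17 to 0.24). The groups overlapped for both genes. MLST8, which both complexes share, MAPKAP1 of mTORC2 and AKT1S1 of mTORC1 had log2 fold changes between -0.11 and 0.05, none called. DEPTOR, an inhibitor of mTOR, was at the edge of detection with 25 to 29 reads per library, and its 95% interval ran from -0.61 to 0.60.

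Both S6 kinases, which carry the mTORC1 signal to the ribosome, rose. RPS6KB1 (ENSG00000108443) had 2005 and 2050.0 normalized counts in siCt 1 and 2 and 2930.2 and 3039 in siAxl 1 and 2. It reached 147% of the siCt mean, a log2 fold change of 0.56 (SE 0.058, limma adjusted p = 0.00264), and the gap between groups was many times the difference between replicates. It lay between 0.53 and 0.58 with 1 library left out. RPS6KB2 (ENSG00000175634) had 1960.0 and 1873 normalized counts in siCt 1 and 2 and 2303 and 2361 in siAxl 1 and 2, a log2 fold change of 0.28 (SE 0.0604, limma adjusted p = 0.0216). Its call was lost without siCt 2, siAxl 1 or siAxl 2, with values from 0.25 to 0.30.

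The other branch of mTORC1 output, the translational repressors, did not pass. EIF4EBP2 had 7343 and 7424 normalized counts in siCt and 8163 and 8670.5 in siAxl, a log2 fold change of 0.19 (limma adjusted p = 0.0579), and it was called with TMM scaling in edgeR's quasi-likelihood test (adjusted p = 0.0355), with TMM in limma and with upper quartile scaling. EIF4EBP1, at 1494 and 1521 in siCt and 1412 and 1537 in siAxl, had -0.03. The log2 ratio of EIF4EBP1 to EIF4EBP2 was -2.30 and -2.29 in siCt and -2.53 and -2.50 in siAxl.

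The largest change of all members was in the LKB1 complex. STRADB (ENSG00000082146), one of the pseudokinases that hold LKB1 in its active form, had 773 and 663 normalized counts in siCt 1 and 2 and 1716 and 1838 in siAxl 1 and 2. It reached 247% of the siCt mean, from 718 ± 77.6 to 1777 ± 85.8 (SD, n = 2), with a log2 fold change of 1.31 (SE 0.0914, limma adjusted p = 0.00113). Its value lay between 1.2 and 1.42 with 1 library left out. It was the only member that changed at least 2-fold, as 1.79% of all tested genes did. TRAK2, which overlaps 4.4% of its exons on the opposite strand, had 2938 reads per library and a log2 fold change of 0.21 (limma adjusted p = 0.0688).

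STRADA (ENSG00000266173), the other pseudokinase, had 408 and 385 normalized counts in siCt 1 and 2 and 361 and 326 in siAxl 1 and 2, a log2 fold change of -0.21 that was not called (limma adjusted p = 0.203). The balance between the paralogs moved more than in any other pair. The log2 ratio of STRADA to STRADB was -0.92 in siCt 1 and -0.78 in siCt 2, and -2.25 in siAxl 1 and -2.49 in siAxl 2. CAB39 (ENSG00000135932), the scaffold of the complex, rose slightly, from 8478 and 8487 normalized counts in siCt to 9599.6 and 9816 in siAxl (log2 fold change 0.19, SE 0.0516, limma adjusted p = 0.041). Its call was lost with any 1 library left out (log2 fold change 0.18 to 0.21). STK11, the LKB1 kinase, had 0.18 (limma adjusted p = 0.062).

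AMPK is built of a catalytic alpha, a scaffolding beta and a nucleotide-sensing gamma subunit. Its catalytic genes differed from each other. PRKAA2 (ENSG00000162409), encoding alpha 2, had 1189 and 1094 normalized counts in siCt 1 and 2 and 1531 and 1620.3 in siAxl 1 and 2. It rose to 138% of the siCt mean, a log2 fold change of 0.46 (SE 0.0734, limma adjusted p = 0.00832), with a range of 0.41 to 0.53 when 1 library was left out.

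PRKAA1 (ENSG00000132356), encoding alpha 1, had 6567 and 6685 normalized counts in siCt and 5906 and 5781 in siAxl, and its log2 fold change of -0.18 narrowly missed the threshold (limma adjusted p = 0.0528). It was past it with scaling by library size alone (limma adjusted p = 0.0281), with upper quartile scaling, after removal of the GC and length trend (0.0447) and with the replicate number as a block. Per kilobase of the principal transcript PRKAA1 remained far above PRKAA2, at 1148 against 169 normalized counts in siAxl. The log2 ratio of PRKAA1 to PRKAA2 was 2.46 and 2.61 in siCt 1 and 2 and 1.95 and 1.83 in siAxl 1 and 2. The beta and gamma genes PRKAB1, PRKAB2, PRKAG1 and PRKAG2 were not called, with log2 fold changes from -0.17 to 0.03.

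**Figure D3:**
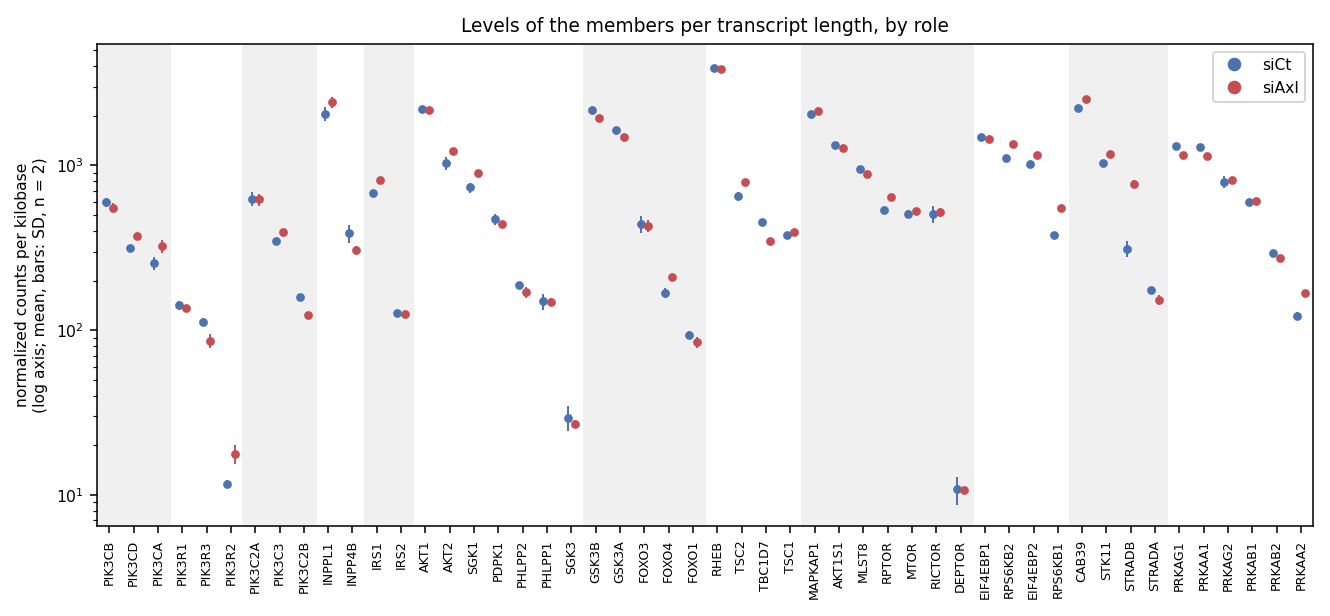
Level of each tested member in normalized counts per kilobase of its principal transcript (vertical axis, log scale), as the mean of 2 libraries with SD bars, siCt in blue and siAxl in red, with roles in alternate shading. RHEB is highest, at 3885 in siCt, and DEPTOR lowest, at 10.8, and the order of genes within a role is mostly shared by the groups.

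Of 18 pairs of related subunits compared within libraries, the log2 ratio did not overlap between siCt and siAxl in 17. This happened in 58.8% of all possible pairs of tested genes, and the pairs share some genes, so the count is given as a description. No exact permutation p could fall below 0.333. The shift in the ratio was -1.52 for STRADA/STRADB, -0.65 for PRKAA1/PRKAA2, -0.63 for PIK3R1/PIK3R2 and 0.46 for PIK3CA/PIK3CB, and 0.007 for GSK3A/GSK3B.

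**Figure D4:**
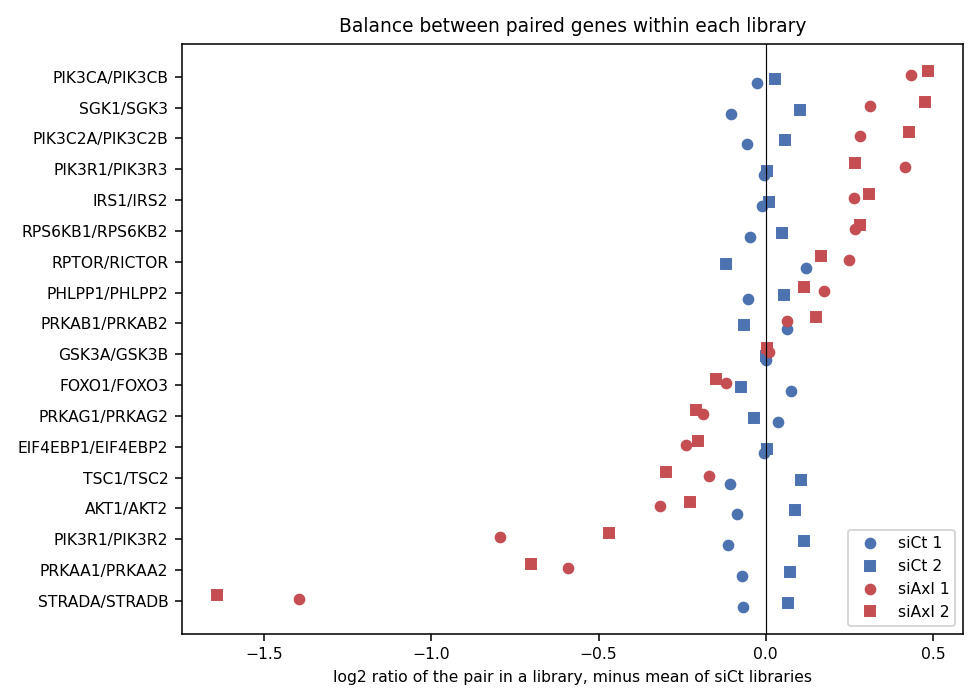
Log2 ratio of the first to the second gene of each pair within each library, minus the mean of the siCt libraries (horizontal axis), with siCt in blue, siAxl in red, circles for replicate 1 and squares for replicate 2. The STRADA/STRADB and PRKAA1/PRKAA2 ratios are lower and the PIK3CA/PIK3CB ratio higher in both siAxl libraries, while the GSK3A/GSK3B ratio barely moves.

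The 3 called members with the largest rises after STRADB share a sequence feature. STRADB itself and FOXO4, the called member with the next largest rise, lack it. In an earlier examination of these same libraries, genes whose 3′ untranslated region (3′ UTR) holds the 7-base word CACATCA were found shifted upward in siAxl, so what follows for the members is a description and no test. RPS6KB1, PRKAA2 and PIK3CA each hold 1 copy, and GSK3B, which was not called and had a negative fold change, holds 2. The sites, from GENCODE transcripts on GRCh38, are shown with 9 bases on either side, the word in capitals, to let the flanks be compared.
RPS6KB1, 3′ UTR exon, chr17:59946995-59947019, plus strand: actcttaggCACATCAattaattga
PRKAA2, 3′ UTR exon, chr1:56709310-56709334, plus strand: gcgttgtgtCACATCAtatggcttt
PIK3CA, 3′ UTR exon, chr3:179235968-179235992, plus strand: tccaggtgcCACATCAaaaaagtgc
GSK3B, 3′ UTR exon, chr3:119825572-119825596, minus strand: taaaaactaCACATCAgaatgatac
GSK3B, 3′ UTR exon, chr3:119821860-119821884, minus strand: atatgtagtCACATCAccatttcca

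The word, searched on the transcript strand alone, was in the 3′ UTR of 10 of the 50 tested members (20%) and of 11.6% of all tested genes with a 3′ UTR. Of the 10 members, 3 were called higher and 0 lower, beside 26.5% higher and 5.84% lower among all tested genes with the word. Of the 40 members without it, 9 were called higher and 4 lower, beside 11% and 9.79% of all such genes. The other carriers, PIK3C3, TSC1, RICTOR, PRKAB1, PRKAB2 and FOXO1, had log2 fold changes from -0.16 to 0.18. STRADB does not hold the word in its longest annotated 3′ UTR. Carriers had longer 3′ UTRs, with a median of 4673 bases in members with the word and 2016 in members without it. The part of the word in these fold changes was not tested.

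Genes around the pathway were examined with 5 lists from general knowledge, written with earlier results of these data known. Their calls are given as a description, beside the 18.7% called among all tested genes. Many of the listed genes were abundant, and among tested genes with a mean of at least 1000 normalized counts the share called was 26.4%. The FOXO-induced genes had the highest share, with 6 of 16 higher and 2 lower (50%) and a median log2 fold change of 0.26. CCNG2, an atypical cyclin, had 3559 and 3724 normalized counts in siCt and 4862 and 5024 in siAxl (log2 fold change 0.44, limma adjusted p = 0.00431). BNIP3, a mitophagy receptor that hypoxia also induces, rose by 0.47 (limma adjusted p = 0.0051), and KLF6 by 0.30 (limma adjusted p = 0.0149). In the other direction, CITED2 had -0.47 (limma adjusted p = 0.00672) and BCL2L11, the pro-apoptotic BIM, -0.36 (limma adjusted p = 0.0276). Each of these genes also answers to other factors, and FOXO activity was not measured.

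Of 25 tested genes for other phosphoinositide kinases and phosphatases, 3 were higher and 2 lower (20%). PIK3IP1, a membrane protein that inhibits class I PI3K, rose 2.03-fold, from 187 and 205 normalized counts in siCt to 406 and 390.1 in siAxl (log2 fold change 1.02, SE 0.107, limma adjusted p = 0.00265). INPP5K (0.35) and PI4KA (0.23) were also higher, and MTMR2 (-0.26) and VAC14 (-0.21) lower. In the list of amino acid sensing at the lysosome, where mTORC1 is switched on, 3 of 27 genes were higher and 2 lower (18.5%). RRAGA, a Rag GTPase, rose from 2604 and 2295 normalized counts in siCt to 4467 and 4455 in siAxl (log2 fold change 0.87), and SESN3 (0.34) and RRAGD (0.23) were higher, whereas SESN1 (-0.48) and SEH1L (-0.35) were lower.

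Among 19 genes listed as AKT substrates and scaffolds, 3 were higher and 1 lower (21.1%). Whether AKT acts on each of them in these cells was not measured. NDRG1 rose from 33941 and 30987 normalized counts in siCt to 62395 and 57954 in siAxl (log2 fold change 0.89, limma adjusted p = 0.00153). PFKFB2, a glycolytic regulator that AKT phosphorylates, fell by 0.67 on the log2 scale (limma adjusted p = 0.00384), and the adaptor GAB2 rose by 0.42 (limma adjusted p = 0.00816). TTC3, a ubiquitin ligase of AKT, rose by 0.27. Of 19 mTORC1 targets and outputs, 2 were higher and 0 lower (10.5%), namely ULK1, the kinase that starts autophagy, at 0.49 (limma adjusted p = 0.0103), and TFE3, a factor of lysosomal genes, at 0.24 (limma adjusted p = 0.0331).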

How the data were processed

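RNA from 4 libraries was sequenced by the authors on an Illumina instrument. The submitters' processing notes name CASAVA 1.8, TopHat2 2.0.10, HTSeq 0.5.3, DESeq2 1.4.5 and the build GRCh37. The strand setting is not given in the sources used here. The deposited signal is a normalized count, reads per gene divided by the authors' DESeq2 size factor. The authors' columns holding a p-value or a score (fold change, standard error, Wald statistic) of their own comparison and the mean column were not used. In each library 100% of values were whole multiples of 1 read within 0.01 read, so reads were recovered, and unused sample columns numbered 0.

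Genes passing edgeR's filterByExpr were tested with limma 3.58.1 (trend) in R 4.3.3, with edgeR 4.0.16 and DESeq2 1.42.0 on the recovered reads as alternatives. The fitting script was tested on simulated data. Replicate libraries differed by more than sampling noise (chi-square per gene 21.6 and 19.6). Members, gene lists, pairs and the rule for named genes (all called members, a fixed set of core members, and the 3 smallest adjusted p in each direction of each other list) were chosen with earlier results of these data known. GENCODE 29, matched by Ensembl identifier for all 52 members, gave lengths, GC content, overlaps and 3′ UTRs on GRCh38. Its coordinates are not those of the authors' build. Of 28 lysosomal list genes 27 were found. Intervals at 95% cover the spread limma models.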

Additional observations from a re-analysis of the deposited data

How the results depend on the processing

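With every gene of at least 1 read in any library tested, 4 members were called (3 higher, 1 lower), and 1097 of all genes (757 higher, 340 lower). At an adjusted p under 0.01, 3 members were called (3 higher, 0 lower) and 859 of all genes (613 higher, 246 lower). With each library left out in turn the members called ran from 4 to 16, higher from 3 to 12 and lower from 0 to 4, and those of all genes from 1301 to 3900, 872 to 2158 and 413 to 1742. Scaling by library size alone called 7 members lower. The median of all tested genes was 0.0069 under TMM scaling, 0.0063 in edgeR with TMM factors, -0.02 under upper quartile scaling and -0.031 under library size alone. With the replicate number as a block (replicate block), 29 members were called, 11 of them lower, and 7310 of all genes (3737 higher, 3573 lower). The 13 members beyond the original 16 were AKT2, EIF4EBP2, GSK3A, GSK3B, INPPL1, PHLPP2, PIK3C3, PIK3CB, PIK3R2, PRKAA1, PRKAG1, STK11 and STRADA. The libraries share only a number in the labels, and across tested genes the difference between replicates of siCt correlated with that of siAxl at 0.271. The cause of these differences was not tested. For single members, 633 of the alternative values kept direction and side of the threshold, 53 fell short of it and 29 passed it anew. The sign changed in 34, all in members that were not called in either setting. The log2 fold change became -0.015 for PHLPP1 and -0.006 for PRKAB1 under upper quartile scaling, -0.027 for PHLPP1, -0.017 for PRKAB1 and -0.003 for PRKAG2 under library size alone, and 0.004 for DEPTOR under TMM scaling. After removal of the GC and length trend it was -0.07 for PHLPP1, -0.009 for PRKAB1, -0.002 for TSC1, -0.011 for MTOR, 0.027 for RHEB and 0.024 for DEPTOR. With each library left out in turn, values on both sides of 0 ran from -0.12 to 0.089 for PIK3C2A, -0.106 to 0.111 for PHLPP1, -0.284 to 0.063 for SGK3, -0.056 to 0.033 for RHEB, -0.054 to 0.106 for PRKAG2, -0.02 to 0.043 for PRKAB1 and -0.143 to 0.097 for FOXO3. They ran from -0.007 to 0.114 for MAPKAP1, -0.105 to 0.02 for PIK3R1, -0.193 to 0.183 for DEPTOR, -0.086 to 0.156 for RICTOR, -0.004 to 0.101 for TSC1, -0.094 to 0.028 for EIF4EBP1 and -0.005 to 0.108 for MTOR. AXL kept its call in all alternatives. At this depth DEPTOR, SGK3, PIK3R2, PIK3CG and INPP5D are the members whose low counts limit precision.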

Other observations

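Replicates with the same number differed alike for several members. RICTOR was higher in library 2 than in library 1 by 0.24 on the log2 scale in siCt and by 0.12 in siAxl, FOXO3 by 0.24 and 0.18, PIK3C2A by 0.21 and 0.17, PIK3CA by 0.18 and 0.18 and INPP4B by 0.26 and 0.14. INPPL1 went the other way, by -0.19 and -0.16. Over the 50 tested members the siCt difference correlated with the siAxl difference at 0.52 (Pearson, across genes of the same 4 libraries, which are not independent), and over 15649 genes at 0.27. Their correlation with GC content was -0.24 in siCt and -0.31 in siAxl over the members, and -0.12 and -0.10 over all these genes.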
